A study of Mus musculus with 64 samples.

Results

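The liver expression of 10 genes of bile acid synthesis and transport was examined in mice given vehicle or corticosterone (CORT). The genes were chosen by their symbols as Cyp7a1, Cyp8b1, Cyp27a1, Baat, Slc10a1, Slco1b2, Slco1a1, Abcb11, Nr1h4 and Nr0b2. They are 10 of the 55573 gene IDs of the count table, and all 10 passed the filter on low counts that left 12273 genes for testing. The rule that names them uses symbols alone, but it was written with earlier results of these data known. Their positions are given below on GRCm38, from GENCODE.

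Bile acids are made from cholesterol in hepatocytes, conjugated to taurine or glycine, pumped into bile, and taken up again from portal blood after they return from the intestine. The bile acid receptor FXR, encoded by Nr1h4, senses their level and induces the corepressor SHP, encoded by Nr0b2, which in turn represses Cyp7a1, the gene of the rate-limiting enzyme of synthesis. Synthesis follows the time of day and feeding, and glucocorticoids acting through the glucocorticoid receptor (GR) are known regulators of several of the transporters.

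Liver RNA came from 20 male F1 mice aged 10 to 18 weeks, bred from C57BL/6J males and 129sv females that carried Ube3a m+/p-. AS mice model Angelman syndrome and inherit from the mother a Ube3a allele with an exon deleted, whereas their WT littermates do not, and non-neuronal cells of AS mice keep the paternal copy. For 5 days, mice carried a pellet under the skin with 100 mg of cholesterol (vehicle) or with 20 mg of CORT and 80 mg of cholesterol, so that cholesterol, the substrate of bile acid synthesis, was given to all groups in unequal amounts. Each of the 4 groups, WT vehicle, WT CORT, AS vehicle and AS CORT, held 5 mice, named here by the number in their label.

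Counts on genes ran from 18612550 to 20868924 per liver library, so that 3 reads, the floor taken here, equal 0.144 to 0.161 CPM, the read count scaled to the library's total. Ube3a, the targeted gene, lay at 41.8 to 54.4 CPM in WT and at 28.5 to 38.6 CPM in AS mice, and fell in AS liver by 0.52 on the log2 scale averaged over treatments (SE 0.06, adjusted p = 0.00022). The 5 hepatocyte markers summed to 97185 to 108796 CPM in WT vehicle, 102717 to 117665 in WT CORT, 93870 to 125773 in AS vehicle and 117176 to 140999 in AS CORT mice. Of the 5, 2 were called higher with CORT averaged over genotypes, beside 17.5% of all genes. Of 4 ileal markers, Fgf15 and Fabp6 had no count in any liver library, while Slc10a2, at 23.1 to 68.0 CPM, and Fabp2, at 32.0 to 72.5 CPM, were detected in all 20. The 4 pancreatic markers summed to at most 0.0492 CPM. The 5 Kupffer cell markers were all detected and summed to 113 to 153 CPM in WT vehicle, 56.0 to 83.7 in WT CORT, 150.3 to 210.2 in AS vehicle and 57.5 to 84.9 in AS CORT mice. All 5 were lower with CORT in both genotypes, where 9.9% (WT) and 15% (AS) of all genes were called lower. The 4 stellate cell markers summed to 66.2 to 96.8, 62.1 to 92.7, 62.6 to 105 and 49.5 to 69.4 CPM in the same order of groups. Of the 4, 2 were called lower with CORT in AS mice, beside 15% of all genes. The endothelial markers summed to 78.8 to 139 CPM, with 2 of 4 called lower with CORT in AS mice. The cholangiocyte markers summed to 15.4 to 41.7 CPM, with 1 of 3 tested called lower with CORT in AS mice. Over all genes, 15% were called lower in that contrast. Reads that aligned nowhere made up 5.39% to 8.93%, 3.20% to 4.77%, 4.52% to 6.68% and 1.49% to 3.23% of the reads in the same order of groups. The part of these marker lists and of the unaligned reads in the CORT results below was not tested, and in bulk RNA fewer cells of a type and less RNA per cell cannot be told apart.

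The liver libraries fell into 2 sets by genes of the circadian clock. Dbp, a clock output gene, lay at 60.0 to 237 CPM in mice 1, 2, 3, 4, 7 and 8 and at 0.653 to 4.21 CPM in the other 14, with a gap of 3.80 between the sets on the log2 scale. Arntl, the gene of the clock activator BMAL1, lay at 0.289 to 5.03 CPM in these 6 mice and at 26.4 to 40.6 CPM in the 14. Per2 did not overlap between the sets either, with 39.0 to 52.0 CPM against 3.54 to 32.6 CPM, while Nr1d1 did. The 6 high-Dbp libraries were 2 WT vehicle, 1 AS vehicle, 1 WT CORT and 2 AS CORT mice, so that each set held as many vehicle as CORT mice. Within the high-Dbp set, Dbp was at 202 to 237 CPM in the 3 vehicle mice and at 60.0 to 75.4 CPM in the 3 CORT mice. The hour at which each mouse was killed is not given in the sources used here. The division was made after the data were seen, and the results are therefore given for all 20 libraries and for each set. The p-values within sets carry that limit.

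**Figure D1:**
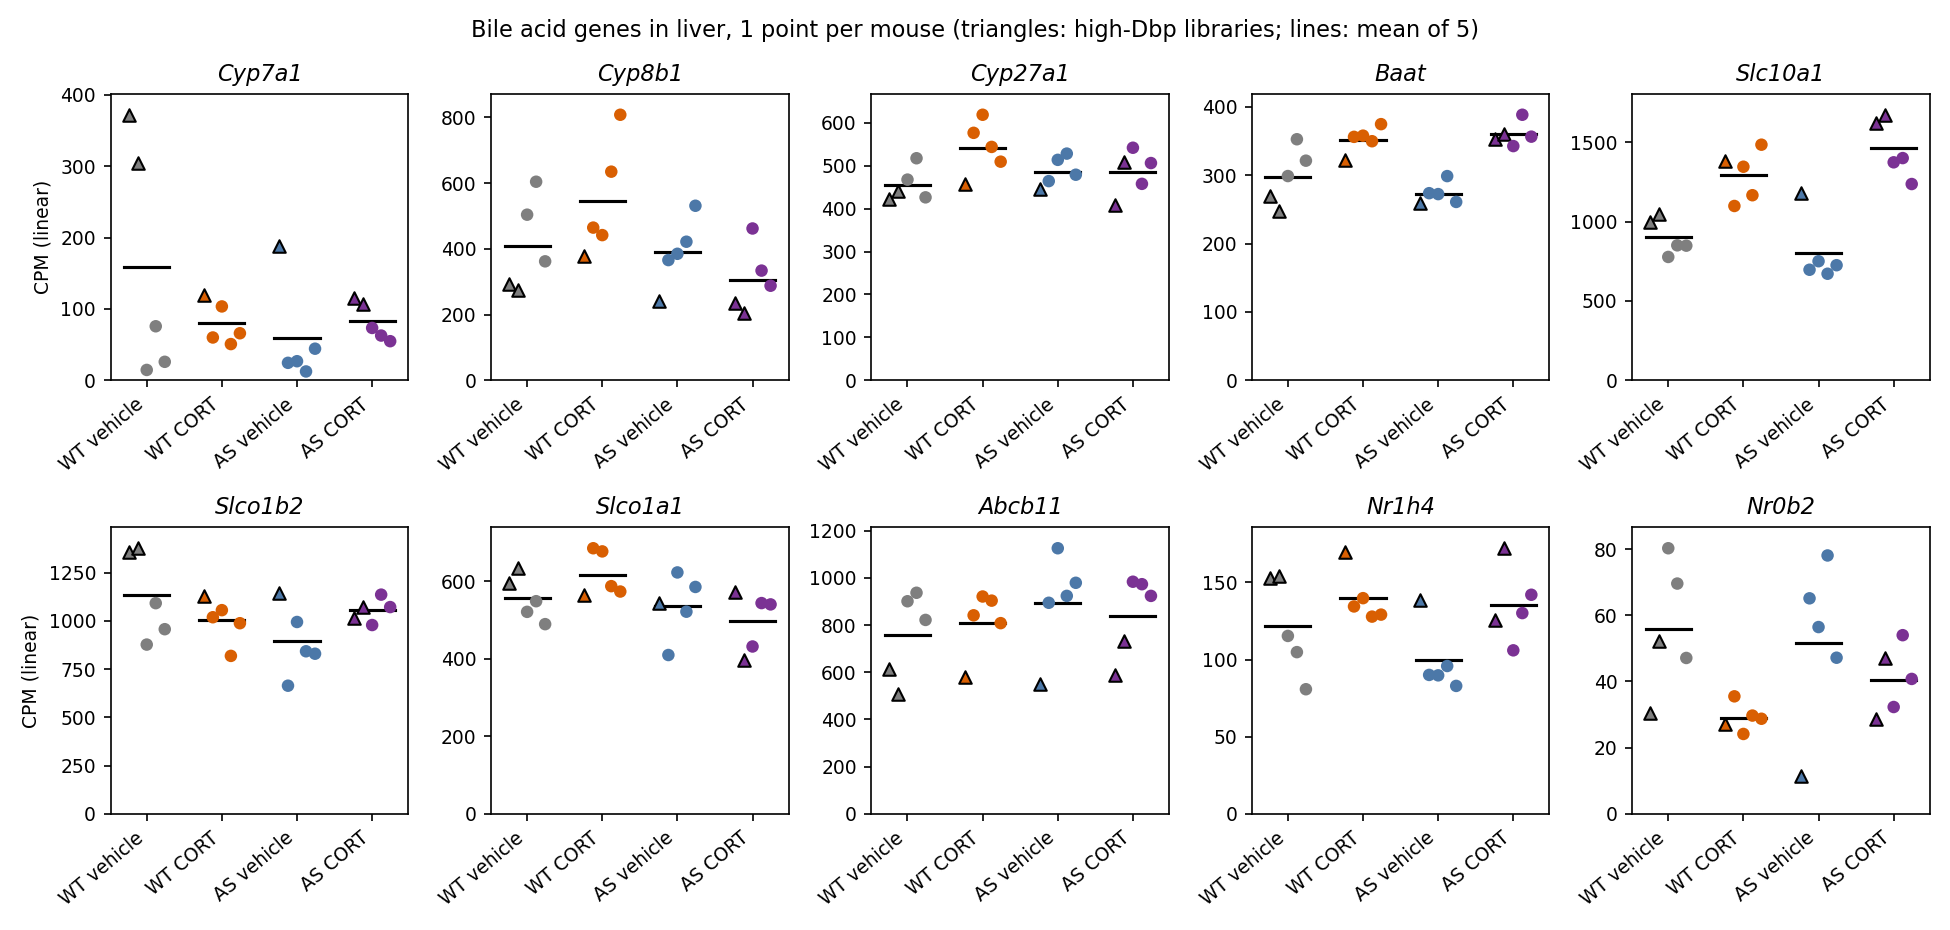
Levels of the 10 genes in each liver library, as CPM on linear axes that start at 0, by genotype and treatment; lines are means of 5 mice and triangles are the 6 high-Dbp libraries. For Cyp7a1 the 3 high-Dbp vehicle mice, at 189 to 372 CPM, lie above all other libraries, and for Abcb11 the 6 high-Dbp libraries, at 508 to 732 CPM, lie below all others.

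Per kilobase of exonic length, Slc10a1 was the most abundant of the 10 genes, with a mean of 508 CPM per kb over the 20 libraries (range 305 to 761). Cyp27a1 (mean 226, range 188 to 285 CPM per kb), Cyp8b1 (mean 211, range 106 to 414) and Slco1b2 (mean 207, range 135 to 279) followed and could not be ordered beyond their spread. Baat and Abcb11, at means of 165 and 160.4 CPM per kb, also overlapped in range, and Slco1a1 came next with a mean of 105 CPM per kb. The regulators were lower, with means of 53.9 CPM per kb for Nr1h4 and 39.1 for Nr0b2. Cyp7a1 had the lowest mean, 22.8 CPM per kb, and, relative to its mean, the widest range, 2.98 to 89.1. In the 20 hippocampal libraries of the same experiment, 9 of the genes reached at most 1.43 CPM, and Cyp27a1, an enzyme also made outside the liver, lay at 2.12 to 17.1 CPM.

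RefSeq promoter windows on build GRCm38.p6, from 250 bases before to 50 bases after the transcription start, were given for 8 of the 10 genes. Those of Slc10a1 and Nr0b2 are shown beside that of Abcb11, the only one of the 8 that holds the letters TGTTCT, a core motif of GR. In the fit of the 4 groups over all 20 libraries, Slc10a1 had the largest called CORT effect of the members. Nr0b2 was the only member called lower with CORT in that fit. Capitals mark TGTTCT and AGGTCA, a core motif of several nuclear receptors, on either strand.
Slc10a1 (chr12:80968656-80968955, minus strand): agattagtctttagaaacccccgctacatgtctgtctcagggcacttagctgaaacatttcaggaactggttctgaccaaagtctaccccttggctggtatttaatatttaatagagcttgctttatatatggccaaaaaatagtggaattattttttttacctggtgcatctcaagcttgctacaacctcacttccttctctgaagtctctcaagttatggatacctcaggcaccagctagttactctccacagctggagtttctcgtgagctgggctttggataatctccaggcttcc
Nr0b2 (chr4:133553126-133553425, plus strand): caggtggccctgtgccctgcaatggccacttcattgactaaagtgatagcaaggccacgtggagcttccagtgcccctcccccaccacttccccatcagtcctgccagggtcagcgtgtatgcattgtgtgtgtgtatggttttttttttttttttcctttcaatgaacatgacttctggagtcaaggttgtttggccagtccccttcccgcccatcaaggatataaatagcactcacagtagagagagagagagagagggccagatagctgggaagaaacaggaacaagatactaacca
Abcb11 (chr2:69342567-69342866, minus strand): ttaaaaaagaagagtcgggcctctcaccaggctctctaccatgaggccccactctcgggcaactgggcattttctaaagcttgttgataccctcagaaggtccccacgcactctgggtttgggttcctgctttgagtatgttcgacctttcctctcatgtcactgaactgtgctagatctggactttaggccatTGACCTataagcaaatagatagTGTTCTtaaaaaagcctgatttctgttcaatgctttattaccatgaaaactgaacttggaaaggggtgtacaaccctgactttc
In Abcb11, TGTTCT begins 34 bases before the start, and AGGTCA, read on the other strand as TGACCT, begins 56 bases before it. Neither motif was found in the windows of Slc10a1 and Nr0b2. TGTTCT was present in 19% of all 32851 windows, and AGGTCA in 16.3% of them and in 4 of the 8 members, Abcb11, Nr1h4, Slco1a1 and Slco1b2. The Nr1h4 window lies at another start than the outermost one of the GENCODE gene, 26927 bases away. TCAAGGTCA, the site of Nr5a2, which overlaps AGGTCA, was in 0.423% of all windows, and the inverted repeat of AGGTCA with 1 base between, the site of FXR, in 0.00913%. Neither of these was in any member's window. These are matches of letters in short windows and not measured binding.

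Averaged over genotypes, CORT raised the uptake transporter gene Slc10a1, the conjugating enzyme gene Baat and the receptor gene Nr1h4, and lowered Nr0b2. These are 4 of the 10 genes, beside 37.1% of all genes tested in the same contrast. With a mouse left out, 2 to 4 were called. The calls of Nr0b2 and Nr1h4 were lost in 12 and 11 of these 20 fits. In WT mice CORT altered Slc10a1 and Baat, 2 of 10, beside 18.6% of all genes, and in AS mice the same 2 of 10, beside 27.5%. The median log2 fold change of the 10 genes was 0.18 in WT, 0.12 in AS and 0.03 averaged, while that of all genes tested lay between -0.0047 and -0.0032. The counts in the members stand near or below those of the whole table.

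**Figure D2:**
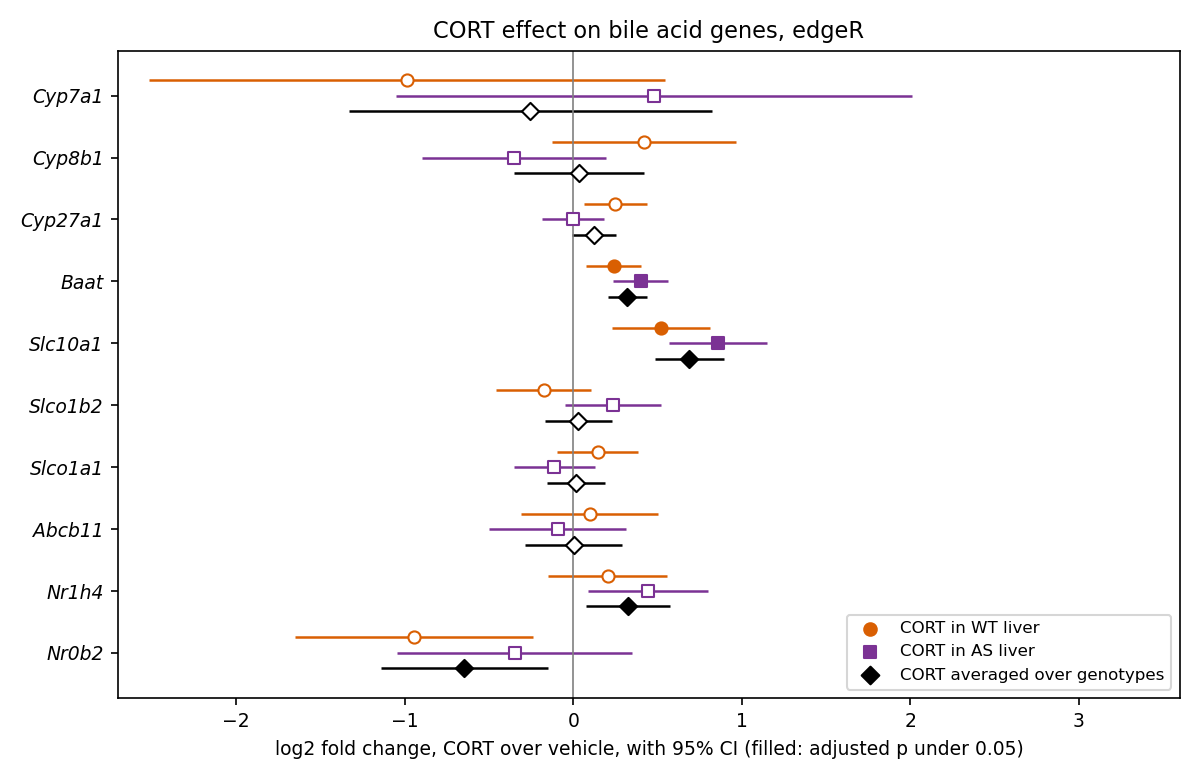
log2 fold change of CORT over vehicle for each gene with its 95% confidence interval, in WT mice, in AS mice and averaged over genotypes; filled symbols have an adjusted p under 0.05. Slc10a1 (0.69) and Baat (0.32) lie above 0 in all 3 comparisons, and the interval of Cyp7a1 is the widest.

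Cyp7a1 (chr4:6265612-6275633, minus strand) encodes the cholesterol hydroxylase that starts the classical pathway of synthesis. It was measured at 372, 305, 14.5, 75.7 and 25.9 CPM in WT vehicle mice 1, 4, 6, 13 and 17, and at 188.6, 24.5, 26.8, 12.4 and 44.3 CPM in AS vehicle mice 2, 9, 11, 14 and 19. With CORT, it lay at 119.7, 60.0, 103.5, 50.8 and 65.9 CPM in WT mice 3, 5, 12, 15 and 20, and at 116, 106.6, 73.4, 62.7 and 54.8 CPM in AS mice 7, 8, 10, 16 and 18. The highest vehicle value exceeded the lowest 30.0 times, against 2.36 times among CORT mice, and the CORT range lay inside the vehicle range. The standard deviation of log2 CPM around the group means was 1.80 among vehicle and 0.50 among CORT mice, and in vehicle mice it exceeded that of 99.8% of all genes tested. With all libraries, the log2 fold change was -0.99 (SE 0.73) in WT, 0.48 (SE 0.73) in AS and -0.25 averaged (95% CI -1.33 to 0.82, adjusted p = 0.74), so that no change was detected, with an interval that includes changes of more than 2-fold in the downward direction. The direction depended on the setting. limma-voom gave 0.22 in WT, 1.47 in AS and 0.85 averaged (adjusted p = 0.14), and the surrogate variable gave 0.0087, 0.30 and 0.15 (adjusted p = 0.68). With a mouse left out, the value ran from -1.28 to -0.40 in WT, from 0.22 to 1.61 in AS and from -0.40 to 0.31 averaged. The averaged value was above 0 without WT vehicle mouse 1 (0.04) or AS vehicle mouse 2 (0.31), both high-Dbp libraries.

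On either side of the division by Dbp, the CORT effect on Cyp7a1 pointed in opposite directions. Among the 14 low-Dbp libraries, Cyp7a1 lay at 12.4 to 75.7 CPM (median 25.9) in 7 vehicle mice and at 50.8 to 103.5 CPM (median 62.7) in 7 CORT mice. Among the 6 high-Dbp libraries it lay at 189 to 372 CPM in 3 vehicle mice and at 107 to 119.7 CPM in 3 CORT mice, with no overlap. In a model with a coefficient for each combination of treatment and set, and genotype as covariate, Cyp7a1 rose with CORT by 1.04 on the log2 scale in the low-Dbp set (SE 0.29, adjusted p = 0.0066) and had a log2 fold change of -1.18 in the high-Dbp set (SE 0.44, adjusted p = 0.066). The difference between these effects was -2.22 (95% CI -3.32 to -1.12), and ran from -2.72 to -2.02 with each mouse left out in turn. The model term passed the threshold for 1 of the 10 members, Cyp7a1, beside 1.75% of all genes, and lost it without mouse 1, 3, 4, 7, 8, 10, 16 or 17. It is given as a description and not as a test, since the sets were drawn after the data were seen and the high-Dbp set holds 3 mice per treatment. The rise in the low-Dbp set was called in all 20 such cases, and the value in the high-Dbp set passed the threshold without mouse 6, 13 or 14. A 4-group fit to the low-Dbp libraries alone gave Cyp7a1 a log2 fold change of 1.05 with CORT averaged over genotypes (adjusted p = 0.018). That fit rests on the same 14 libraries and is no independent support.

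**Figure D3:**
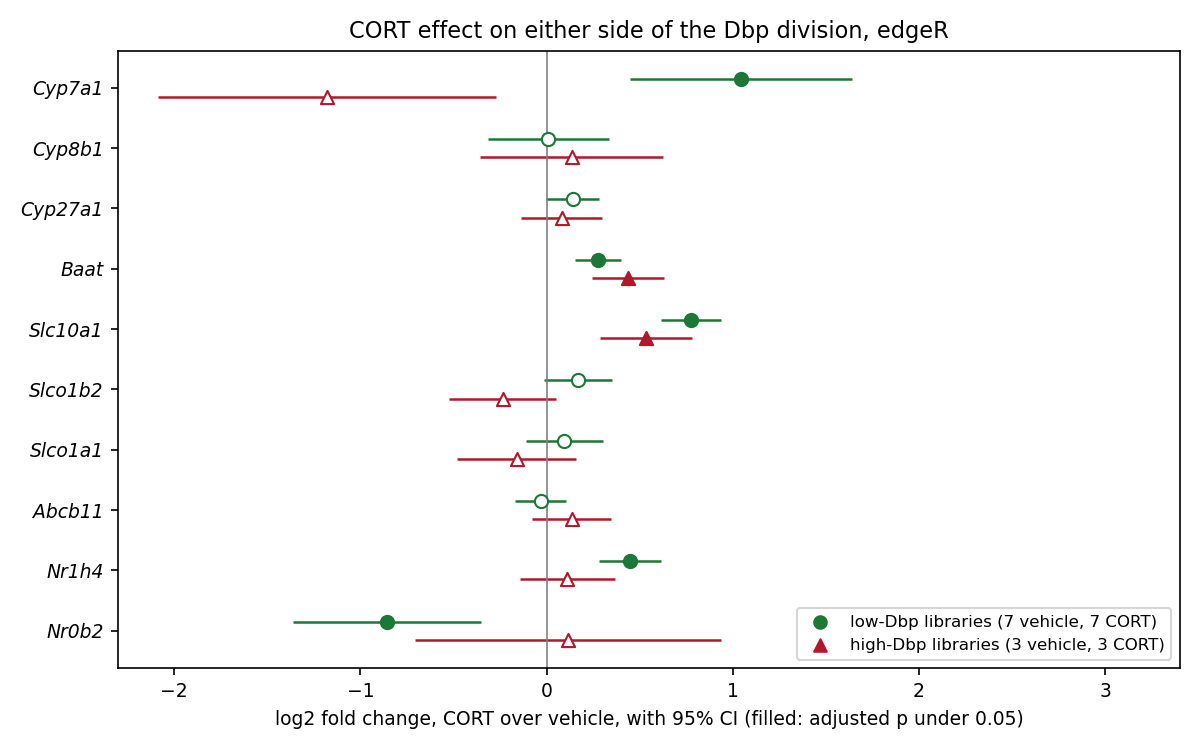
log2 fold change of CORT over vehicle with 95% confidence interval among the low-Dbp libraries (circles, 7 vehicle and 7 CORT mice) and the high-Dbp libraries (triangles, 3 and 3); filled symbols have an adjusted p under 0.05. Cyp7a1 lies at 1.04 in the low-Dbp set and at -1.18 in the high-Dbp set, and Slc10a1 and Baat are above 0 and called in both.

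Cyp8b1 (chr9:121914356-121916305, minus strand), the sterol hydroxylase that directs synthesis toward cholic acid, was not called in any contrast. Its levels were 275 to 604 CPM in WT vehicle, 379 to 808 in WT CORT, 242 to 531 in AS vehicle and 206 to 462 in AS CORT mice, and all groups overlapped. The averaged CORT effect was 0.04 (95% CI -0.35 to 0.42). Between the genotypes given CORT, AS mice were lower by a log2 fold change of -0.84 (SE 0.26), with an unadjusted p = 0.0047 and an adjusted p = 0.29. When 1 surrogate variable was added, this difference was -0.76 and passed the threshold (adjusted p = 0.020), and averaged over treatments it was then -0.54 (adjusted p = 0.019). With the division by Dbp as covariate in its place, no genotype contrast called a member. In the 3 high-Dbp vehicle mice Cyp8b1 lay at 242 to 292 CPM, below the 362 to 604 CPM of the 7 low-Dbp vehicle mice, whereas the CORT mice of both sets overlapped.

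Cyp27a1 (chr1:74713574-74737892, plus strand), which opens the alternative pathway of synthesis in mitochondria, had a narrow spread, from 409 to 619 CPM over all libraries. The log2 fold change with CORT was 0.25 (SE 0.09) in WT mice, with an adjusted p = 0.053, and -0.0036 (SE 0.088) in AS mice, with an adjusted p = 0.98. The difference between these effects was -0.25 (SE 0.12, adjusted p = 0.63). In WT mice the effect passed the threshold under the DESeq2 Wald test (adjusted p = 0.032), limma-voom (0.039), the surrogate variable (0.032) and the division by Dbp as covariate (0.044), with log2 fold changes of 0.22 to 0.26. It did not pass with DESeq2 size factors (adjusted p = 0.052), upper-quartile normalization (0.11), no filter (0.092), the WT groups alone (0.077) or the low-Dbp libraries alone (0.063). With a mouse left out, it passed in 3 of 20 fits.

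Baat (chr4:49489422-49506557, minus strand) encodes the acyltransferase that conjugates bile acids. It was measured at 269.6, 247, 299, 353 and 321 CPM in WT vehicle mice 1, 4, 6, 13 and 17, and at 323, 356, 358, 349.8 and 375 CPM in WT CORT mice 3, 5, 12, 15 and 20. In AS mice it lay at 259 to 299 CPM with vehicle and at 343 to 389 CPM with CORT, so that the AS groups did not overlap, while 1 WT vehicle mouse reached the CORT range. Baat rose by 0.24 (SE 0.08, adjusted p = 0.035) in WT, 0.40 (SE 0.08, adjusted p = 0.00070) in AS and 0.32 (SE 0.06, adjusted p = 0.00012) averaged. The WT call was lost without any of mice 1, 4, 6, 5, 12, 15 and 20, with adjusted p of 0.056 to 0.095, with upper-quartile normalization (adjusted p = 0.083), without a filter on low counts (0.067), in a fit of the WT groups alone (0.0996) and among the low-Dbp libraries alone (0.15, adjusted p = 0.19). Averaged over genotypes, Baat rose in the low-Dbp set (0.28, adjusted p = 0.00092) and in the high-Dbp set (0.44, adjusted p = 0.0020).

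Slc10a1 (chr12:80953183-80968705, minus strand) encodes NTCP, the sodium-dependent carrier that takes conjugated bile acids from blood. WT vehicle mice 1, 4, 6, 13 and 17 had 996, 1047, 777, 851 and 849 CPM, and WT CORT mice 3, 5, 12, 15 and 20 had 1380.5, 1099, 1346, 1166 and 1485 CPM. AS vehicle mice 2, 9, 11, 14 and 19 had 1179.6, 697, 750.5, 672 and 725 CPM, and AS CORT mice 7, 8, 10, 16 and 18 had 1621, 1673, 1374, 1400.3 and 1237 CPM. Every CORT mouse exceeded every vehicle mouse of its genotype. Slc10a1 rose by 0.52 (SE 0.14, adjusted p = 0.012) in WT, 0.86 (SE 0.14, adjusted p = 0.00011) in AS and 0.69 averaged (SE 0.10, adjusted p = 1.5e-05), a 1.61-fold change. The AS effect exceeded the WT effect by 0.34 (SE 0.20, adjusted p = 0.67), which did not pass the test. Pooled over genotypes, the vehicle and CORT mice overlapped through AS vehicle mouse 2, a high-Dbp library. Within each set they did not overlap, with 672 to 851 against 1099 to 1485 CPM in the low-Dbp and 996 to 1179.6 against 1380.5 to 1673 CPM in the high-Dbp libraries, and Slc10a1 rose in both (0.78, adjusted p = 1.4e-07, and 0.53, adjusted p = 0.0034).

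Slco1b2 (chr6:141629518-141686646, plus strand) and Slco1a1 (chr6:141907282-141946962, minus strand) encode sodium-independent organic anion carriers of the OATP family, which also take up bile acids. Slco1b2 ranged from 664 to 1377 CPM, and its averaged CORT effect was 0.03 (95% CI -0.17 to 0.23, adjusted p = 0.83). The values within genotypes differed in sign, with -0.18 (SE 0.14, adjusted p = 0.42) in WT and 0.24 (SE 0.14, adjusted p = 0.21) in AS mice, and limma-voom called the AS value (0.32, adjusted p = 0.048). The 2 highest values, 1356 and 1377 CPM, were those of WT vehicle mice 1 and 4 of the high-Dbp set. Slco1a1 ranged from 397 to 685 CPM, with an averaged CORT effect of 0.02 (95% CI -0.15 to 0.19, adjusted p = 0.89). Among CORT mice, AS lay lower than WT by a log2 fold change of -0.31 (SE 0.12), with an adjusted p = 0.42. Slco1a1 has near relatives in the genome, such as Slco1a4, and reads shared between them may have been left uncounted or split.

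Abcb11 (chr2:69238282-69342616, minus strand) encodes BSEP, the pump that exports bile salts into the canaliculus. With CORT its averaged log2 fold change was 0.0043 (95% CI -0.28 to 0.29, adjusted p = 0.99), and neither genotype passed the test. Its levels followed the division by Dbp. The 6 high-Dbp libraries had 615, 508, 579, 549.9, 587 and 732 CPM in mice 1, 4, 3, 2, 7 and 8, and the 14 others had 808 to 1125 CPM, without overlap. The share of all genes that separate the sets in this way was not counted, so the pattern is not known to be particular to Abcb11. Within each set, the CORT effect was -0.03 (95% CI -0.17 to 0.10) among low-Dbp and 0.14 (95% CI -0.08 to 0.35) among high-Dbp libraries. Exons of 2 genes on the opposite strand, Gm13613 and Gm13614, overlap Abcb11, and since the strand setting of the counting is not stated, their reads cannot be told apart with certainty.

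**Figure D4:**
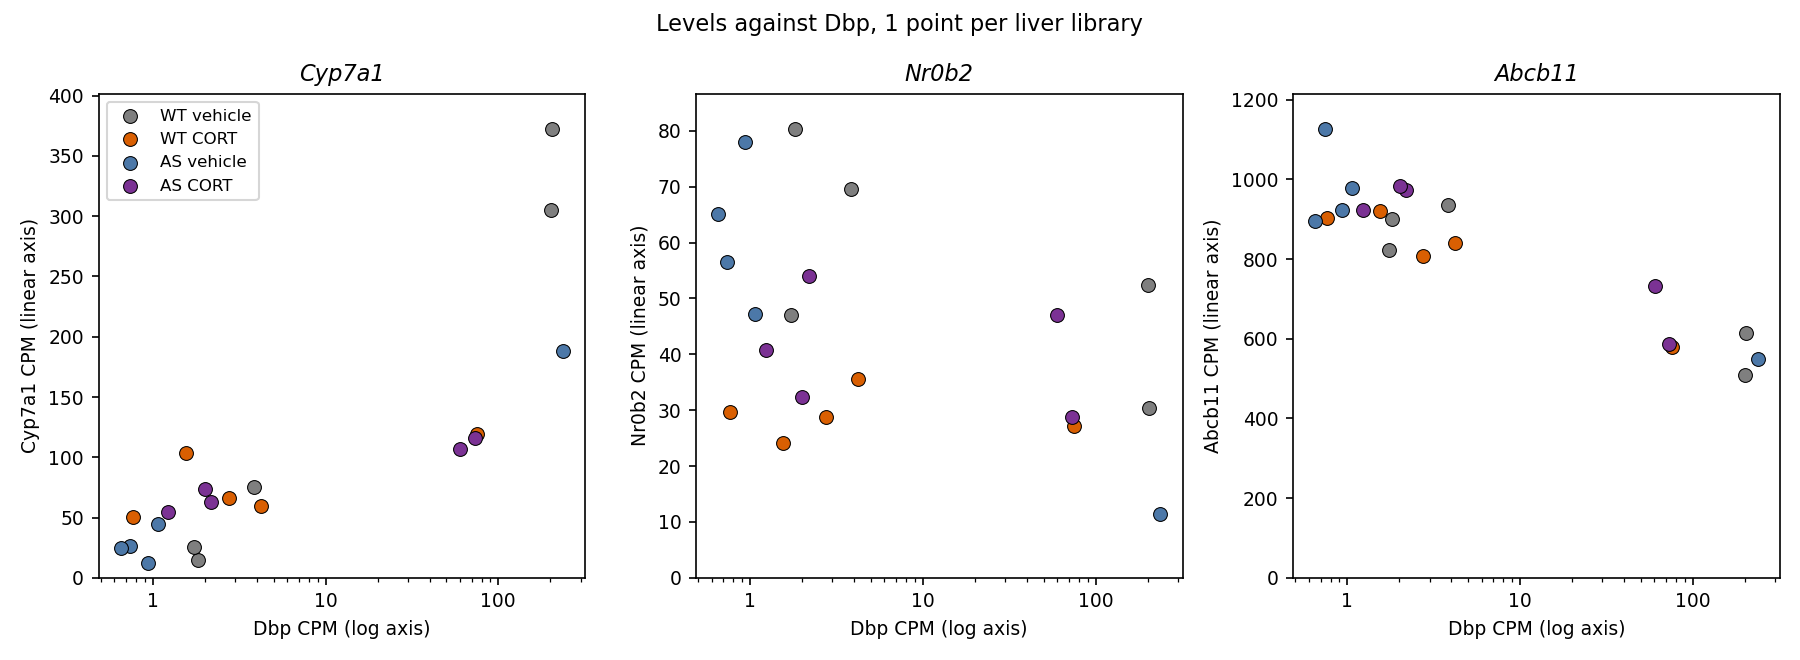
Cyp7a1, Nr0b2 and Abcb11 (CPM, linear axes) against Dbp (CPM, logarithmic axis) in each liver library, coloured by group. The 6 libraries with Dbp of 60.0 CPM or more stand apart on the right, where the 3 vehicle mice have 189 to 372 CPM of Cyp7a1 and the 3 CORT mice 107 to 119.7 CPM.

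Nr1h4 (chr10:89454234-89533585, minus strand), the gene of FXR, was measured at 153, 154, 115, 105 and 80.7 CPM in WT vehicle mice 1, 4, 6, 13 and 17, and at 138, 90.0, 89.7, 95.8 and 82.9 CPM in AS vehicle mice 2, 9, 11, 14 and 19. CORT mice lay at 128 to 169 CPM in WT and at 106 to 172 CPM in AS. Within each genotype, vehicle and CORT mice overlapped through the vehicle mice of the high-Dbp set, 3 in all. Averaged over genotypes, Nr1h4 rose by 0.32 (SE 0.12, adjusted p = 0.039), while the effects within WT (0.20, adjusted p = 0.45) and AS mice (0.44, adjusted p = 0.058) did not pass. The AS value passed under DESeq2 (adjusted p = 0.037), limma-voom (0.0066), the surrogate variable (0.025), the Dbp covariate (0.010) and in the low-Dbp libraries alone (0.0046), and the WT value under the last 3 of these (0.023, 0.035 and 0.020). With DESeq2 size factors (adjusted p = 0.056), upper-quartile normalization (0.078), no filter (0.058) and the AS groups alone (0.058), the AS value did not pass. With a mouse left out, it passed in 4 of 20 fits. The averaged call was lost without any of mice 3, 6, 8, 9, 11, 12, 13, 14, 17, 18 and 19 (adjusted p of 0.053 to 0.082) and with upper-quartile normalization (0.29, adjusted p = 0.059), and held in the low-Dbp set (0.45, SE 0.08, adjusted p = 0.00016). In the high-Dbp set the value was 0.11 (SE 0.12, adjusted p = 0.59).

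Nr0b2 (chr4:133553376-133556536, plus strand), the gene of SHP, was the only member called lower with CORT in the fit of the 4 groups. It lay at 30.4, 52.3, 80.2, 69.6 and 47.1 CPM in WT vehicle mice 1, 4, 6, 13 and 17 and at 27.1, 35.5, 24.1, 29.7 and 28.7 CPM in WT CORT mice 3, 5, 12, 15 and 20. AS vehicle mice 2, 9, 11, 14 and 19 had 11.4, 65.1, 56.4, 78.1 and 47.2 CPM, and AS CORT mice 7, 8, 10, 16 and 18 had 28.8, 47.0, 32.3, 54.0 and 40.8 CPM. The lowest value of all was that of AS vehicle mouse 2, which had the highest Dbp. Averaged over genotypes Nr0b2 changed by -0.65 (SE 0.24, adjusted p = 0.038), with -0.95 (SE 0.34, adjusted p = 0.056) in WT and -0.35 (SE 0.33, adjusted p = 0.48) in AS mice. The WT value passed under DESeq2 (adjusted p = 0.046), upper-quartile normalization (0.049), a fit of the WT groups alone (0.012), limma-voom (0.028), the surrogate variable (0.0094), the Dbp covariate (0.013) and in the low-Dbp libraries alone (0.0011). It did not pass with DESeq2 size factors (adjusted p = 0.056) or no filter (0.054). The AS value passed in none of these settings and was 0.05 with the surrogate variable. Leaving out any of mice 3, 6, 7, 9, 10, 11, 12, 13, 14, 15, 18 and 20 (adjusted p of 0.053 to 0.081), or adding the surrogate variable (-0.48, adjusted p = 0.054), ended the averaged call. Among low-Dbp libraries the 7 vehicle mice had 47.1 to 80.2 CPM and the 7 CORT mice 24.1 to 54.0 CPM, and Nr0b2 fell (-0.86, SE 0.24, adjusted p = 0.0082). Among high-Dbp libraries the value was 0.11 (SE 0.39, adjusted p = 0.88).

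In total, 5 of the 10 genes were called for CORT in the low-Dbp set, Cyp7a1, Nr1h4, Slc10a1 and Baat upward and Nr0b2 downward, beside 39.2% of all genes, and 2 of 10 in the high-Dbp set, Slc10a1 and Baat upward, beside 18.1%. Without the 6 high-Dbp libraries, the 4-group fit called the same 5 genes for the averaged CORT effect, beside 37.6% of the 12099 genes tested in it. This fit uses the same libraries as the low-Dbp set and adds no independent support.

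AS and WT livers were compared at each treatment. None of the 10 genes was called with vehicle, with CORT or averaged over treatments by edgeR, beside 0.0163%, 0.277% and 0.326% of all genes, and 1, 2 and 2 of them had an unadjusted p under 0.05, beside 10.3%, 8.29% and 10% of all genes. The DESeq2 Wald test also called none. With 1 surrogate variable, Cyp8b1 was called lower in AS mice with CORT (-0.76, adjusted p = 0.020) and averaged over treatments (-0.54, adjusted p = 0.019). Those contrasts then called 0.693% and 0.831% of all genes. With vehicle, Slco1b2 had the smallest p of the 10, with a log2 fold change of -0.34 in AS mice (SE 0.14, adjusted p = 0.40). Cyp7a1 had the largest difference, -1.42 (SE 0.74, adjusted p = 0.53), between a WT group with 2 high-Dbp mice and an AS group with 1. For the interaction, the CORT effect in AS minus that in WT mice, 0 of 10 members were called, beside 0% of all genes. For the interaction, 995 genes (8.11%) had an unadjusted p under 0.05, 1 of them a member, Slco1b2, and DESeq2 called 9 genes, none of them a member.

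Within groups, 4 pairs of members were compared by the deviations of their log2 CPM from the group means. Because the libraries form 2 sets, correlations are given for the 14 low-Dbp libraries, with two-sided exact permutation within groups and adjustment over 8 values. Cyp7a1 and Nr0b2 had r = -0.46 (p = 0.22, adjusted p = 0.54) and rho = -0.39 (p = 0.27, adjusted p = 0.54), and r = -0.60 without the 2 libraries farthest from the median of Cyp7a1. Slc10a1 and Slco1b2 had r = 0.34 (p = 0.27, adjusted p = 0.54) and rho = 0.55 (p = 0.051, adjusted p = 0.41), and r = 0.60 without 2 libraries. For Cyp7a1 and Cyp8b1, r was 0.24 (p = 0.49, adjusted p = 0.73), rho 0.20 (p = 0.54, adjusted p = 0.73) and r without 2 libraries 0.15, and for Nr0b2 and Abcb11 r was -0.10 (p = 0.75, adjusted p = 0.86), rho -0.05 (p = 0.88, adjusted p = 0.88) and r without 2 libraries -0.35, all by exact permutation. No pair passed the threshold with all 14 libraries. With a mouse left out, Cyp7a1 and Nr0b2 passed by r and by rho in 2 of 14 permutation tests (lowest adjusted p = 0.038). The 6 high-Dbp libraries were too few within groups for the same test.

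Over all 20 libraries, whose range includes both sets, the genes whose log2 CPM was most like that of Cyp7a1 were Clmn (Pearson r = 0.940), Baz1a (0.919) and 1700001L05Rik (0.904). After group means were subtracted they were Clmn (0.948), Ip6k1 (0.945) and Pptc7 (0.937). For Nr0b2 they were Armc9 (0.815), Zbtb5 (0.814) and Gdf15 (0.804), and after subtraction Gdf15 (0.860), Tgif1 (0.858) and Armc9 (0.829).

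The other genes of the pathway numbered 46, of which 42 were tested. The regulators among them include the clock genes Dbp and Nr1d1, neither of which was called for CORT, so that the calls below fall among the other 40. CORT averaged over genotypes altered 27 of them, 16 upward and 11 downward, beside the 37.1% of all genes, and their median log2 fold change was 0.04. Of the 4 not tested, Ch25h, Slc51a, Gpbar1 and Vdr, none passed the filter on low counts.

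Among synthesis genes, Cyp39a1, a hydroxylase that acts on oxysterols, rose most, from 14.4 to 18.3 CPM in WT vehicle to 70.6 to 101.9 CPM in WT CORT mice and from 12.3 to 16.9 to 85.0 to 116.8 CPM in AS mice, without overlap (averaged 2.59, SE 0.08, adjusted p = 1.1e-14). Acox2, a peroxisomal oxidase of side-chain shortening, also rose (0.77, adjusted p = 1.4e-07). Akr1c6 (-0.71, adjusted p = 5.2e-09), an aldo-keto reductase with close relatives, and Amacr (-0.48, adjusted p = 3.1e-06), the racemase of side-chain shortening, fell.

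Of the conjugation genes other than Baat, Sult2a8, a sulfotransferase of bile acids, fell (-0.96, adjusted p = 3.0e-07), as did Ugt1a1 (-0.34, adjusted p = 7.1e-05), a glucuronosyltransferase whose first exon has many alternatives. The thioesterase gene Acot8 rose (0.22, adjusted p = 0.0013), and Slc27a5, which activates bile acids for conjugation, had 0.10 (adjusted p = 0.052).

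Among uptake genes, Ephx1 (0.36, adjusted p = 0.00047) and the carrier gene Slco2b1 (0.23, adjusted p = 0.0011) rose, and Slco1a4 had a value of 0.23 that did not pass (adjusted p = 0.43). Of the 10 export genes tested, Abcb11 included, 5 fell, beside 19.6% of all genes, 1 rose, beside 17.5%, and 4 were not called, with a median log2 fold change of -0.37. The gene that rose was Abcb4, a phospholipid transporter (0.23, adjusted p = 0.0041), and Abcb11, Abcg5, Atp8b1 and Slc51b were those not called. The efflux pumps Abcg2 (-0.59, adjusted p = 6.5e-07), Abcc3 (-0.58, adjusted p = 7.2e-06) and Abcc2 (-0.40, adjusted p = 0.00017) and the sterol transporter subunit Abcg8 (-0.64, adjusted p = 0.00099) fell.

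Among regulators, Klb (0.54, adjusted p = 6.5e-06) and Fgfr4 (0.17, adjusted p = 0.0018), the co-receptor and receptor of the intestinal hormone FGF15, rose. So did the xenobiotic receptor gene Nr1i2 (0.52, adjusted p = 1.0e-05) and Hnf4a (0.34, adjusted p = 0.00019), a main transcription factor of hepatocytes. Of the 42 tested genes, Cyp7b1, an oxysterol hydroxylase of the alternative pathway, was the only one called between genotypes. It was lower in AS mice averaged over treatments by a log2 fold change of -0.76 (SE 0.16, adjusted p = 0.039). The same contrast called 0.326% of all genes. Cyp7b1 was named after its values were seen, and its call was not examined under the alternative settings. Its means were 358 ± 91.9 and 285 ± 58.9 CPM in WT vehicle and WT CORT mice and 211 ± 58.9 and 168 ± 50.3 CPM in AS vehicle and AS CORT mice (SD, n = 5 each).

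**Figure D5:**
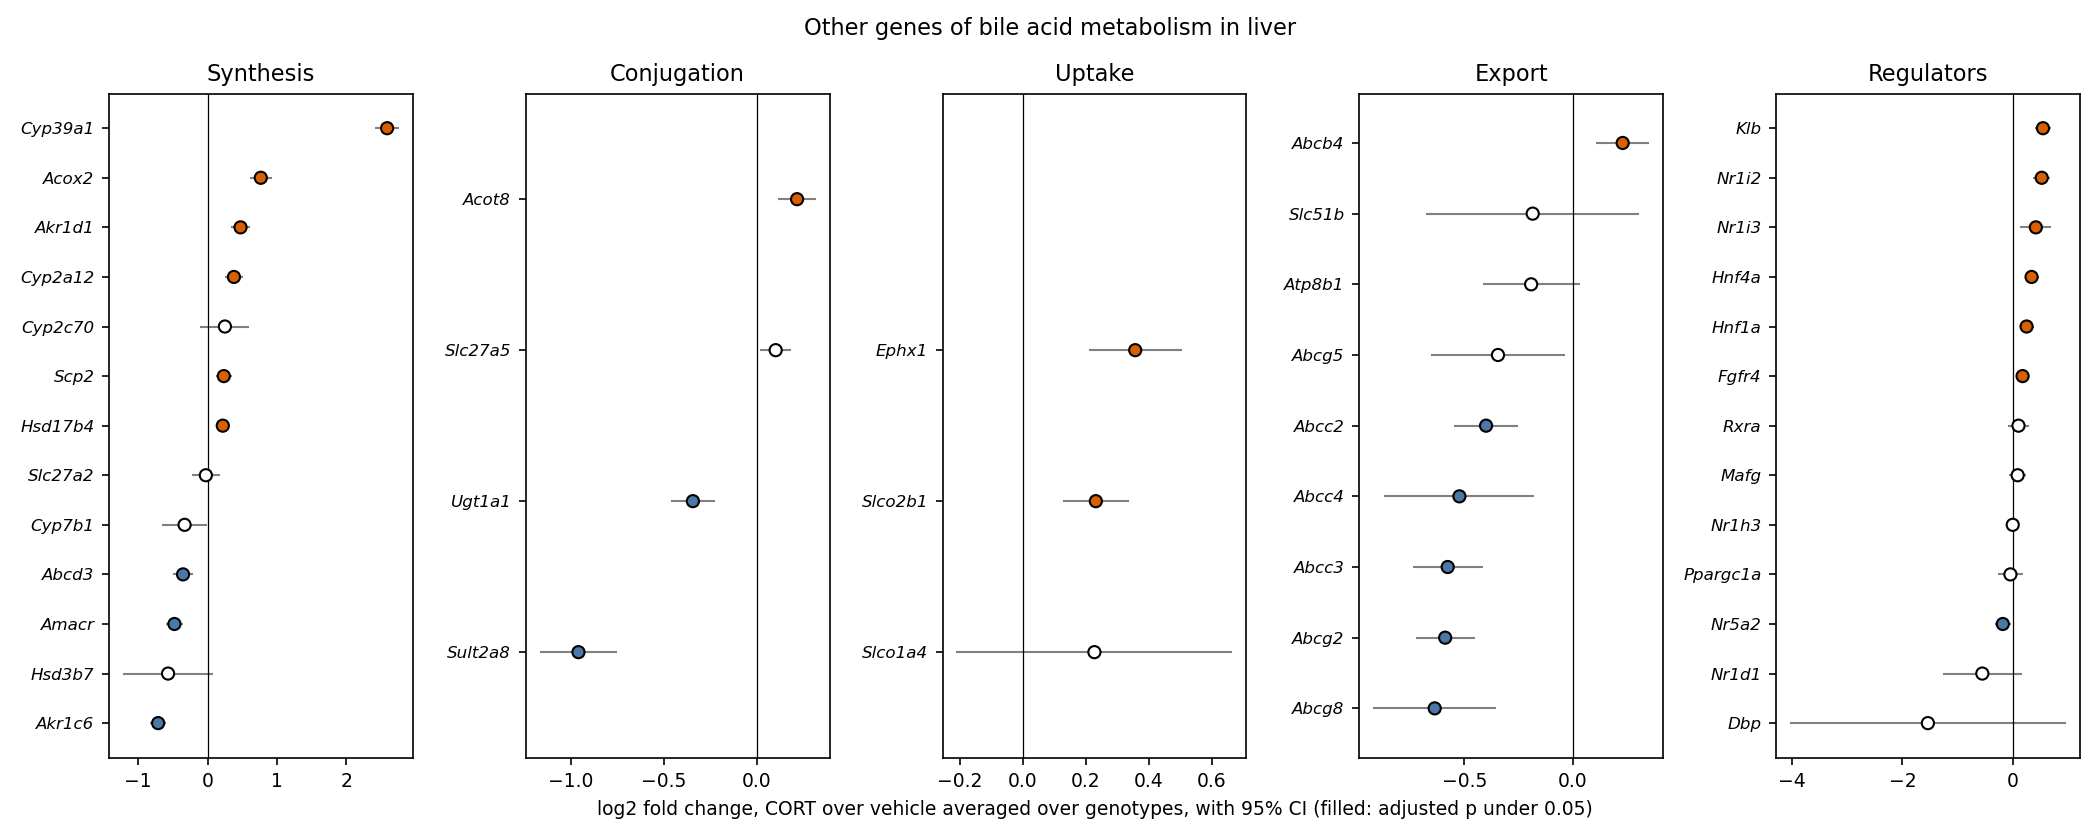
log2 fold change of CORT over vehicle, averaged over genotypes, with 95% confidence interval, for the 42 tested pathway genes beyond the 10 members, by role and on axes that differ between panels; filled points have an adjusted p under 0.05 (orange higher, blue lower). Cyp39a1 stands apart at 2.59, and most export genes lie below 0.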

How the data were processed

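Liver and hippocampal RNA of the continuous CORT experiment was analysed, and the acute experiment was not used here. The authors made stranded mRNA libraries, checked reads with FastQC and MultiQC, and aligned them with STAR to mm10. Reads were assigned to genes by HTSeq-count, and the authors deposited the raw counts without normalization. The annotation release and strand setting are not given in the sources used here. Groups came from the labels, and 0 columns belonged to no sample. Liver reads on no gene (15.4% to 23.3%) entered neither library sizes nor tests.

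Symbols and exonic lengths came from GENCODE M21, which named 55480 of 55573 IDs. In R 4.3.3, edgeR 4.0.16 (TMM, quasi-likelihood F test, 1 coefficient per group, 20 liver libraries) was applied to genes that exceeded 20 median-of-ratios counts in 3 or more mice of any group. P-values were adjusted by Benjamini-Hochberg over all genes of a contrast (threshold 0.05). CPM values were scaled by TMM, and a prior count of 2 was added before logarithms to base 2 were taken. The function was tested on simulated data. Libraries of a group differed by more than counting noise (lowest chi-square per gene 15.8). The labels do not say whether mice shared a litter, cage or day.

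Genes named are the 10 members, up to 4 further genes per role with the smallest p for CORT averaged over genotypes, Ube3a, and the 3 genes most like Cyp7a1 and Nr0b2. The clock genes, ileal markers, Cyp7b1, Abcb4, the export genes not called, the untested genes and those overlapping Abcb11 were named after their values were seen. Members and lists were chosen with earlier results of these data known. Alternatives were DESeq2 1.42.0, its size factors, upper-quartile normalization, no filter, fits of the compared groups alone, limma-voom (limma 3.58.1), 1 surrogate variable (sva 3.50.0), a threshold of 0.01, and each mouse left out. The division at the widest gap in Dbp was added after the data were seen, as a covariate, as a restriction to the 14 low-Dbp libraries and as a model term. Correlations had been planned over all 20 libraries and were restricted to the 14 because the libraries form 2 sets.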

Additional observations from a re-analysis of the deposited data

Results flagged for a closer look

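In 40 groups of 5 mice, the member value farthest from the rest was set against Dixon's critical value of 0.71, which chance alone exceeds in about 1 of 20 groups. Cyp7a1 in AS vehicle mouse 2 was 188.6 CPM, against 44.3 CPM in the next mouse of its group. Nr1h4 was 138 CPM in the same mouse (next 95.8 CPM) and 169 CPM in WT CORT mouse 3 (next 139.8 CPM), and Slc10a1 was 1179.6 CPM in AS vehicle mouse 2 (next 750.5 CPM). Both mice were the only high-Dbp libraries of their groups.

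The CORT effect on Cyp7a1 differed between the sets of libraries, by -2.22 on the log2 scale (high-Dbp minus low-Dbp), and the model term for this difference passed the threshold with all libraries and in 12 of 20 fits with a mouse left out. It is a description and no independent test, since the sets were drawn after the data were seen, from Dbp, whose own level within the high-Dbp set was lower in the 3 CORT mice.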

How the results depend on the processing

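No paired analysis was possible because the liver groups compared share no mouse number. Members called for CORT in WT mice numbered 4 with DESeq2 (beside 20.7% of all genes) and with limma-voom (21.3%), 5 with the surrogate variable (26.3%) or the Dbp covariate (24.4%), 1 without a filter (7.53%) and 0 at the 0.01 threshold (10.9%), against 2 as reported (18.6%), and 1 to 3 with a mouse left out. In AS mice limma-voom called 4 (32.4%), and leaving out mice gave 2 to 4, the 4 without mouse 2 (Nr0b2 and Nr1h4 added), against 2 (27.5%). Averaged over genotypes, the 0.01 threshold left 2 (25.3%) and leaving out mice gave 2 to 4, against 4 (37.1%). The surrogate variable gave 1 call between genotypes given CORT (0.693%) and 1 averaged over treatments (0.831%), Cyp8b1 in both, against 0. The averaged CORT effect on Cyp7a1, -0.25 as reported, was 1.05 in the low-Dbp libraries alone, 0.85 with limma-voom, 0.38 with the Dbp covariate and 0.15 with the surrogate variable, and -0.40 to 0.31 with a mouse left out. With a mouse left out, r of Cyp7a1 and Nr0b2 ran from -0.79 to -0.31 and rho from -0.80 to -0.29, and both passed without mouse 13 or 17. Of 2070 alternative log2 fold changes of members, 40 lost a call, 34 gained one in the same direction, 1 (Cyp7a1 in the low-Dbp libraries) gained one in the opposite direction, and 95 changed sign without being called in either fit. Genes called over the whole table changed by over 1.5 times at the 0.01 threshold in WT (1336 against 2286) and in AS (2005 against 3380), and between genotypes ranged from 0 to 44 with vehicle (2 as reported), 10 to 93 with CORT (34) and 12 to 103 averaged (40). For the interaction they ranged from 0 to 9. With a mouse left out these counts were 1 to 4, 12 to 63, 16 to 41 and 0 to 1. The lowest member count in a liver library was 236, and the part of library depth was not tested. The causes of these changes were not tested.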
